A study of Mus musculus with 20 samples.

Results

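The BMP ligand genes were taken as 9 named genes, *Bmp2*, *Bmp3*, *Bmp4*, *Bmp5*, *Bmp6*, *Bmp7*, *Gdf5*, *Gdf6* and *Gdf7*, and all 9 were found among the 43280 genes counted. RNA-seq counts came from 12 libraries, 8 embryonic and 4 adult, and accessible regions came from 4 ATAC-seq peak lists of the embryonic conditions. Embryonic cells came from mice at E13.5, with the strain labelled C57BL/6, while the study's methods give mixed backgrounds for the *Eed* fl and *Rosa26mTmG* lines. Controls carried *Bapx1-cre* and *Rosa26mTmG*, and *Eed* KO embryos carried the same alleles together with *Eed* fl/fl, so that Cre and the reporter were shared by both genotypes. The mTmG reporter turns from red to green fluorescence after Cre recombination, and GFP+ cells were sorted from the intestine and from the stomach, so the cells examined were those in which *Bapx1-cre* had acted. Adult cells were GFP+ cells sorted from the small intestine of mice about 10 weeks of age that carried *Pdgfrb-CreERT2* and *Rosa26mTmG*, without or with *Eed* fl/fl, and in which Cre was induced with tamoxifen. Each of the 6 groups had 2 libraries. The study's methods call the sequencing replicates biological, and the labels do not say which or how many animals made up each library.

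BMP ligands are secreted dimers of the TGF-beta superfamily that bind paired type I and type II serine/threonine kinase receptors, after which receptor-activated SMAD proteins bind SMAD4 and enter the nucleus. *Bmp2* and *Bmp4* form one close subgroup, *Bmp5*, *Bmp6* and *Bmp7* another, and *Gdf5*, *Gdf6* and *Gdf7* one more, while *Bmp3* stands apart and can oppose the signal of other BMPs. In the gut these ligands are made largely by the mesenchyme, and they act on the epithelium and on the mesenchyme itself. *Eed* is a core subunit of Polycomb repressive complex 2, which places methyl groups on lysine 27 of histone H3 at silent genes.

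Gene-assigned counts ranged from 30236159 to 39606157 in the embryonic libraries and from 11404712 to 15903642 in the adult ones. Levels are given as CPM, counts relative to a library size scaled by the trimmed mean of M-values (TMM), and as TPM, which also divides by gene length, where genes are compared with each other. *Eed* was at 38.1 and 40.1 CPM in the control embryonic intestine against 10.7 and 8.58 CPM after its deletion there. Stomach libraries had *Eed* at 40.0 and 41.5 CPM in controls and at 11.4 and 7.40 CPM in *Eed* KO. In the adult intestine *Eed* was at 29.6 and 33.4 CPM in controls and at 25.6 and 25.0 CPM in *Eed* KO, a log2 difference of -0.32 that did not pass (adjusted p = 0.317). In bulk samples, fewer cells of a type and less RNA per cell cannot be told apart.

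Open chromatin was found at the start of every BMP ligand gene in every condition. A promoter peak was defined as a peak of the list that overlapped the 1000 bp on either side of the transcription start. All 9 genes had a promoter peak in each of the 4 lists, against 87.8% of the 16216 genes tested in the control intestine list, 88.9% in the *Eed* KO intestine list, 88.3% in the control stomach list and 88.9% in the *Eed* KO stomach list. Each list was called on pooled replicates, so peak differences between lists have no replicate check. All of these peaks covered the start itself.

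**Figure D1:**
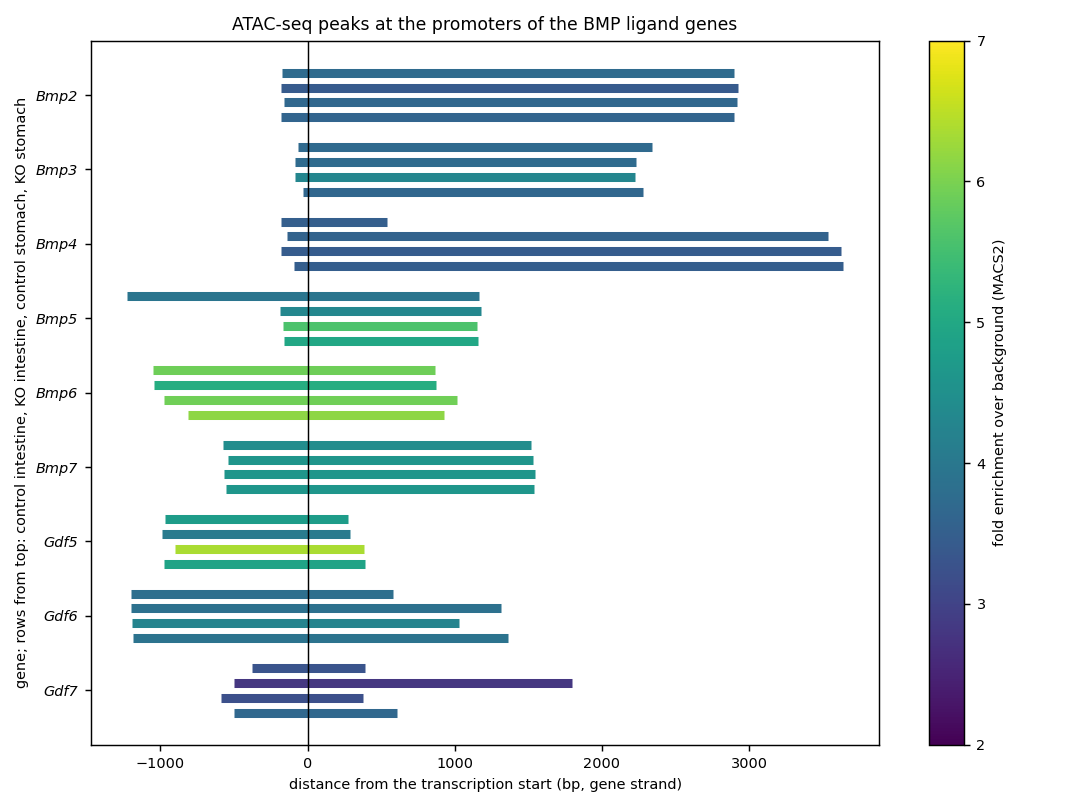
Extent of the promoter ATAC-seq peaks of the 9 BMP ligand genes, with distance from the transcription start in bp on the x axis and 4 bars per gene from top to bottom for the control intestine, *Eed* KO intestine, control stomach and *Eed* KO stomach lists. Colour gives the fold enrichment over background from MACS2, and each bar crosses 0, from the palest enrichment of *Gdf5* in the control stomach (6.36) to the darkest of *Gdf7* in the *Eed* KO intestine (2.79).

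The promoter peaks differed in strength between genes. *Bmp6*, on chromosome 13, had peaks among the stronger of the 9 genes in all 4 lists. Their fold enrichments were 5.89 in the control intestine, 5.10 in the *Eed* KO intestine, 5.91 in the control stomach and 6.15 in the *Eed* KO stomach. *Gdf7*, on chromosome 12, had weak ones, at 3.30, 2.79, 3.23 and 3.68 in the same order. The median over all genes with a promoter peak was 6.91, 6.46, 6.80 and 6.69, so that every value of the 9 genes lay below the median of its list. *Bmp4* on chromosome 14, the ligand gene with the highest RNA level, had enrichments of 3.50, 3.58, 3.44 and 3.48, and between 6.54% and 9.83% of the promoter peaks of a list were weaker.

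A few genes had peaks that differed between lists in strength or in width. *Bmp5* had a promoter enrichment of 3.95 in the control intestine and 5.59 in the control stomach, a ratio of 0.706, where the 5th and 95th percentiles over all genes were 0.857 and 1.20. Its peak was 2396 bp wide in the control intestine and 1322 bp wide in the control stomach. The part of peak width in the enrichment was not tested for any gene. *Gdf5* had 4.75 and 6.36 in the same lists, a ratio of 0.747, and 4.91 in the *Eed* KO stomach, a ratio of 0.772 to the control stomach, where those percentiles were 0.817 and 1.20. *Gdf7* had 2.79 in the *Eed* KO intestine and 3.68 in the *Eed* KO stomach, a ratio of 0.758, where the 5th percentile was 0.821. Ratios outside the 5th and 95th percentiles occur by definition in a set share of all genes. Whether the 9 genes exceeded that share was not tested. For the remaining pairs of *Eed* KO and control lists, the ratios of the 9 genes ran from 0.845 to 1.14. The *Gdf7* peak was 768 bp wide in the control intestine and 2292 bp in the *Eed* KO intestine, 966 bp in the control stomach and 1104 bp in the *Eed* KO stomach. The *Gdf6* peak was 1782 bp wide in the control intestine and 2513 bp in the *Eed* KO intestine, and 2223 and 2544 bp in the stomach. At *Bmp4* the region was called as a peak of 722 bp at the start in the control intestine and as a single peak of 3676 to 3807 bp in the other lists. *Bmp2*, *Bmp3* and *Bmp7* peaks kept nearly the same edges in the 4 lists, with widths of 3072 to 3102, 2308 to 2405 and 2073 to 2110 bp.

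The 250 bases before the start were read for the 4 genes whose promoters are in the RefSeq promoter table (build GRCm38.p6), namely *Bmp4*, *Bmp5*, *Bmp6* and *Gdf7*. *Bmp2*, *Bmp3*, *Bmp7*, *Gdf5* and *Gdf6* have no entry. They are shown 5′ to 3′ on the strand of the gene, because these stretches overlap the promoter peaks and differ in base composition, with each CG pair in capitals. The *Bmp4* stretch is chr14:46390670-46390919 on the minus strand, *Bmp5* chr9:75775115-75775364 on the plus strand, *Bmp6* chr13:38345466-38345715 on the plus strand and *Gdf7* chr12:8301955-8302204 on the minus strand. The peaks covered the *Bmp6* and *Gdf7* stretches whole in the 4 lists, the *Bmp5* stretch whole in the control intestine and in part in the other lists, and the *Bmp4* stretch in part.
Bmp4: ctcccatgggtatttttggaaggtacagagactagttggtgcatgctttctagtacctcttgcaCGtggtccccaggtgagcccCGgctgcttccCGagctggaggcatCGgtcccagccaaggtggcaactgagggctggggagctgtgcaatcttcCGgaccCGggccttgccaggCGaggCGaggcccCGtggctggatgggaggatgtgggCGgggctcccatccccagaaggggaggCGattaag
Bmp5: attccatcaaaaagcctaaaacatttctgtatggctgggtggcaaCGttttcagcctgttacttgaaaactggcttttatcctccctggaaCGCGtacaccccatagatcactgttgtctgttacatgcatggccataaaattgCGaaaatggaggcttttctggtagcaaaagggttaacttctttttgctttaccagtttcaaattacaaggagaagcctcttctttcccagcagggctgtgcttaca
Bmp6: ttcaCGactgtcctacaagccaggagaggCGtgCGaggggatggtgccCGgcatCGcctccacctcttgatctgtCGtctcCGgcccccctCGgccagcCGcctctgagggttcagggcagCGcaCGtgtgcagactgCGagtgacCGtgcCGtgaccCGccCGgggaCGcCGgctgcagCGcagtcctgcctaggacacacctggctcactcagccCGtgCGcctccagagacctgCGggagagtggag
Gdf7: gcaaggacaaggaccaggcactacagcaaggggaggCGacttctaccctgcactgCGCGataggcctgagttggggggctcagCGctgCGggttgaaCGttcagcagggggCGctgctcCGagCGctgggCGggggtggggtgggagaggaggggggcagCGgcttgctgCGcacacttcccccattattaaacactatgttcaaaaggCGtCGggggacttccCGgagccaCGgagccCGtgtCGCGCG
The *Bmp6* stretch held 22 CG pairs and 68.8% G and C, and the *Gdf7* stretch held 20 CG pairs and 66.0% G and C. *Bmp4* held 11 CG pairs and 63.2% G and C, and *Bmp5* held only 4 CG pairs and 42.8% G and C. The median over 27025 promoters in the table was 6 CG pairs, so *Bmp5* lay below it and the other 3 genes above it. The letters GGGCGG, searched on both strands, occurred once each in *Bmp4*, *Bmp6* and *Gdf7* and not in *Bmp5*, and in 32.9% of all promoters in the table. TATAAA (13.0% of promoters), CCAAT (34.5%), GTAAACA (3.09%) and GGCGCC (9.54%) were found in none of the 4 stretches.

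In the embryo the ligand genes spanned a wide range of levels, with *Bmp4* first in all 4 embryonic groups. In the control intestine, mean TPM ± SD (n = 2) was 154 ± 12.9 for *Bmp4*, 59.3 ± 4.45 for *Bmp5*, 43.1 ± 7.11 for *Gdf6*, 39.9 ± 4.02 for *Bmp3*, 13.6 ± 1.24 for *Bmp7*, 9.03 ± 0.211 for *Bmp6*, 2.28 ± 0.322 for *Bmp2* and 1.36 ± 0.551 for *Gdf5*, and *Gdf7* had no count. *Gdf6* and *Bmp3* were neighbours within their spread. In the control stomach the order was *Bmp4* at 88.0 ± 33.0, *Bmp5* at 30.2 ± 2.17, *Bmp6* at 21.4 ± 1.39, *Gdf6* at 18.5 ± 10.2, *Bmp7* at 15.3 ± 1.11, *Bmp3* at 4.43 ± 2.13, *Bmp2* at 3.45 ± 1.76, *Gdf5* at 3.36 ± 0.340 and *Gdf7* at 0.149 ± 0.0553. *Bmp6*, *Gdf6* and *Bmp7* lay within the spread of *Gdf6*, and *Bmp2* and *Gdf5* lay within the spread of *Bmp3*. In the *Eed* KO intestine the order was that of the control intestine, with *Bmp4* at 172 ± 17.4, *Bmp5* at 59.4 ± 0.623, *Gdf6* at 38.4 ± 1.47, *Bmp3* at 21.7 ± 10.6, *Bmp7* at 15.5 ± 4.94, *Bmp6* at 4.87 ± 1.39, *Bmp2* at 4.44 ± 1.81, *Gdf5* at 3.52 ± 1.30 and *Gdf7* at 0.269 ± 0.0662. In the *Eed* KO stomach *Gdf6* stood second at 40.4 ± 6.29, after *Bmp4* at 112 ± 6.63 and before *Bmp5* at 23.4 ± 1.72, *Bmp7* at 16.6 ± 1.98, *Bmp6* at 10.3 ± 0.914, *Bmp3* at 8.44 ± 3.51, *Bmp2* at 6.56 ± 1.97, *Gdf5* at 3.59 ± 0.213 and *Gdf7* at 1.22 ± 0.884. *Bmp4* made up between 39.0% and 54.7% of the summed TPM of the 9 genes in the embryonic libraries.

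**Figure D2:**
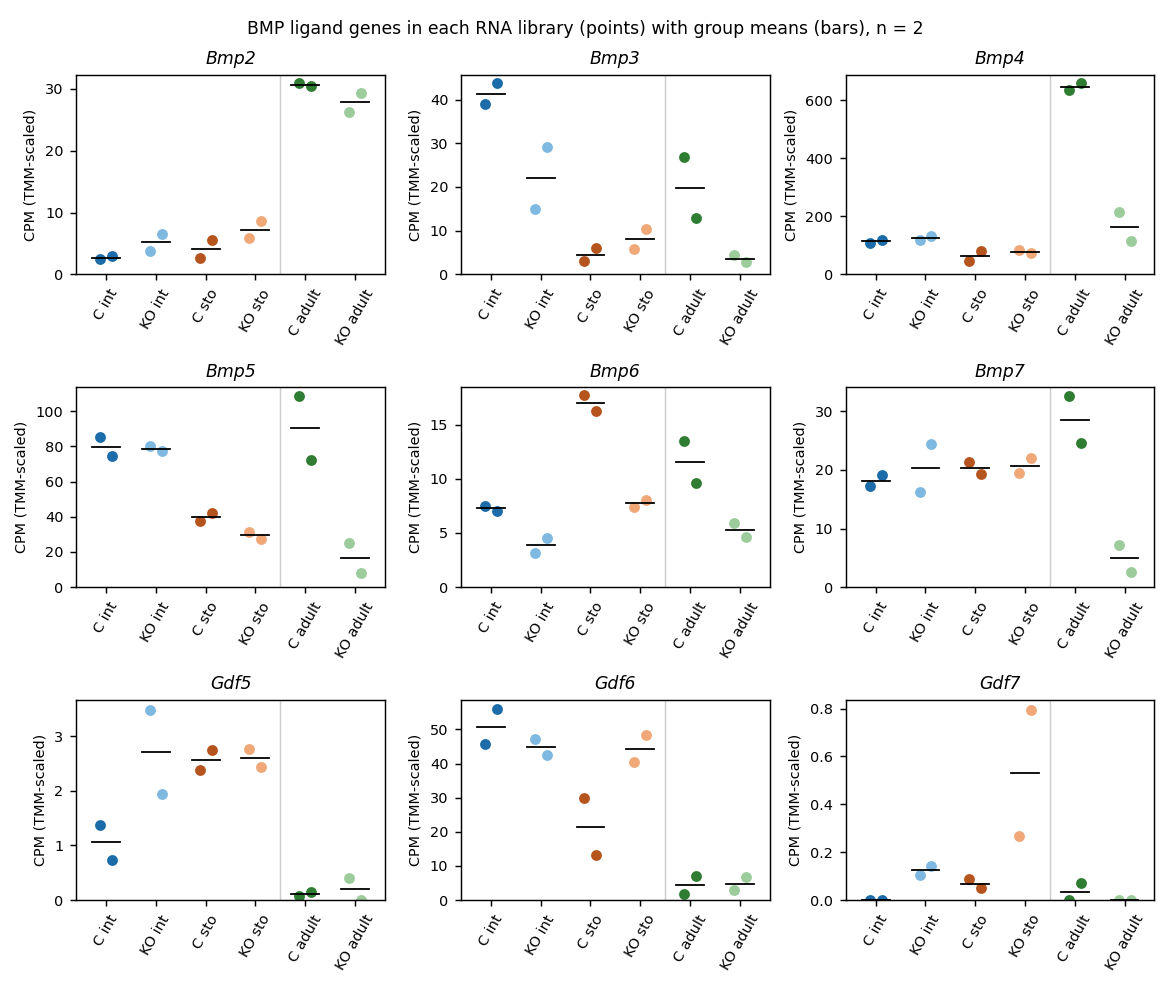
CPM of each BMP ligand gene in every RNA library, with a separate linear y axis from 0 for each gene, points for the 2 libraries of a group and a bar for their mean. C is control, KO is *Eed* KO, int and sto are the embryonic intestine and stomach, and the grey line separates the adult libraries, which were scaled on their own. *Bmp3* stands at 39.1 and 43.7 CPM in the control intestine against 2.98 and 6.09 in the control stomach, and *Bmp4* reaches 635 and 658 in the adult controls.

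The first comparison asked which ligand genes differed between the control intestine and the control stomach. *Bmp3* was higher in the intestine and *Bmp6* higher in the stomach, and these 2 of the 9 genes tested passed (adjusted p under 0.05 and a log2 difference above 1 in size), where 5.07% of the 16218 genes tested did. *Bmp3*, at chr5:98854439-98880960, had 39.1 and 43.7 CPM in the intestine and 2.98 and 6.09 CPM in the stomach. The groups were far apart, and the difference was 3.18 ± 0.45 (log2, SE; adjusted p = 0.00659). *Bmp6*, at chr13:38345716-38499728, had 7.50 and 7.03 CPM in the intestine and 17.7 and 16.2 CPM in the stomach, a difference of -1.22 ± 0.18 (adjusted p = 0.00823). The *Bmp6* libraries did not overlap, but the call was lost without control intestine replicate 1, control intestine replicate 2 or control stomach replicate 1 (adjusted p = 0.0564 to 0.0719).

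*Bmp5*, at chr9:75775364-75900310, came next. It was at 85.2 and 74.3 CPM in the intestine and at 37.9 and 42.1 CPM in the stomach, a difference of 0.996 ± 0.12 with an adjusted p of 0.00315, just short of the fold limit. It passed with several of the alternative settings, and its difference ran from 0.906 to 1.095 with 1 library left out. *Gdf6*, at chr4:9844372-9862345, was at 45.6 and 55.9 CPM in the intestine and at 29.8 and 13.2 CPM in the stomach. Its stomach libraries lay far apart, and the difference of 1.24 ± 0.33 did not pass (adjusted p = 0.0759). With 1 library left out, the difference ran from 0.77 to 1.95. *Bmp4*, at chr14:46383520-46390669, was at 110 and 120 CPM in the intestine and at 47.2 and 81.7 CPM in the stomach. Its difference of 0.83 ± 0.23 had an adjusted p of 0.0831, and ran from 0.49 to 1.28 with 1 library left out. The member count without 1 library ranged from 1, without control intestine replicate 1, to 4, without control stomach replicate 2. *Gdf5*, at chr2:155941023-155945367, was low in both organs, at 1.38 and 0.740 CPM in the intestine and 2.38 and 2.75 CPM in the stomach (-1.26 ± 0.38, adjusted p = 0.113). *Bmp7*, at chr2:172868012-172940321, was at 17.3 and 19.1 CPM in the intestine and 21.3 and 19.3 CPM in the stomach, and *Bmp2*, at chr2:133552159-133562885, was at 2.47 and 2.93 CPM in the intestine and at 2.58 and 5.50 CPM in the stomach. Neither gene passed.

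The next comparisons asked what loss of *Eed* did to these genes in each embryonic organ. In the embryonic intestine none of the 9 passed by edgeR, where 2.61% of the 16218 genes tested did. An unadjusted p under 0.05 was found there for 3 members and for 2274 of the 16218 genes. DESeq2 called 1 member, and over all genes 628 higher and 57 lower. In the embryonic stomach 1 of the 9 passed, where 5.65% of genes tested did. That gene was *Bmp6*, which fell in the *Eed* KO stomach to 7.43 and 8.09 CPM from 17.7 and 16.2 CPM. The libraries of the 2 genotypes were well apart, and the difference was -1.13 ± 0.18 (adjusted p = 0.0124). Without any single library of the 4, the *Bmp6* adjusted p lay between 0.0625 and 0.0806. In the intestine *Bmp6* was at 3.16 and 4.53 CPM in *Eed* KO and at 7.50 and 7.03 CPM in controls, a difference of -0.92 ± 0.19 with an adjusted p of 0.0502. With 1 library left out, the *Bmp6* difference in the intestine ran from -0.68 to -1.20.

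Scaling the embryonic libraries by their spike-in RNA moved the median of all genes in the *Eed* KO comparisons up by 1.85 (log2) in the intestine and 2.39 in the stomach, since *Eed* KO libraries held 4871 to 14932 spike-in counts and controls 26227 to 37590. On that scale the *Bmp6* difference turned to 1.03 in the intestine and 1.29 in the stomach, neither past the test. Subtracting the shift of all genes, which largely undoes this scaling, gave -0.82 and -1.09. On that scale 7 members in the intestine and 8 in the stomach passed as higher, along with 13664 and 15419 genes of all tested.

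*Gdf7*, at chr12:8297934-8301954, was detected at very low counts and more often in *Eed* KO libraries. It had no count in the control intestine libraries, where a count of 0 allows up to 0.0824 and 0.0992 CPM, and 4 and 5 counts in *Eed* KO intestine libraries. Set against a floor of 3 counts over the control group, the 9 counts of the *Eed* KO group gave a ratio of 2.69. This takes the 9 counts as exact, so it is not a lower limit. The edgeR test of *Gdf7* in the intestine did not pass (adjusted p = 0.232). Stomach libraries held *Gdf7* at 3 and 2 counts in controls and 10 and 29 in *Eed* KO, a ratio of 7.80 with an exact 95% counting interval of 3.07 to 25.3, which covers counting error only. The edgeR difference in the stomach was 2.90 ± 0.76 with an adjusted p of 0.0725, and ran from 1.92 to 3.48 with 1 library left out.

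Several other ligand genes had larger values in *Eed* KO without passing. *Gdf6* was at 40.4 and 48.4 CPM in the *Eed* KO stomach against 29.8 and 13.2 CPM in the control stomach (1.05 ± 0.33, adjusted p = 0.108). With 1 library left out, this difference ran from 0.58 to 1.75. *Bmp2* was at 3.80 and 6.53 CPM in the *Eed* KO intestine against 2.47 and 2.93 CPM in controls, and at 5.85 and 8.64 CPM in the *Eed* KO stomach against 2.58 and 5.50 CPM. The *Bmp2* differences of 0.94 ± 0.42 and 0.84 ± 0.40 had adjusted p-values of 0.383 and 0.272. Both changed sign in DESeq2 with 1 RUVg factor taken from the spike-in RNA. *Gdf5* was at 3.48 and 1.94 CPM in the *Eed* KO intestine against 1.38 and 0.740 CPM in controls (1.34 ± 0.38, adjusted p = 0.130), and at 2.76 and 2.44 CPM against 2.38 and 2.75 CPM in the stomach, where the genotypes overlapped.

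*Bmp3* had differences of opposite sign in the organs, neither past the test. It was at 14.9 and 29.2 CPM in the *Eed* KO intestine, below both controls (-0.91 ± 0.41, adjusted p = 0.393), and at 5.90 and 10.4 CPM in the *Eed* KO stomach, overlapping the controls (0.84 ± 0.44, adjusted p = 0.313). The test of the difference between the organs' responses gave -1.75 ± 0.60 for *Bmp3* (adjusted p = 0.669), which did not pass. By that test, none of the 9 members passed at an adjusted p under 0.2 with edgeR, where 0.462% of genes tested did. An unadjusted p under 0.05 was found for 4 members and for 954 of the 16218 genes. DESeq2 called 1 member, and over all genes 99 higher and 108 lower. The DESeq2 call was *Bmp3* (-1.76, adjusted p = 0.118). In edgeR with 1 library left out, the *Gdf6* difference ran from -0.76 to -1.93.

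*Bmp4*, *Bmp5* and *Bmp7* showed small differences between genotypes. *Bmp4* was at 120 and 132 CPM in the *Eed* KO intestine and at 82.8 and 73.2 CPM in the *Eed* KO stomach, with differences from controls of 0.13 ± 0.23 and 0.27 ± 0.23. *Bmp5* differed by -0.02 ± 0.12 in the intestine and by -0.44 ± 0.12 in the stomach (adjusted p = 0.0698), where its *Eed* KO libraries at 31.5 and 27.3 CPM lay below both controls. *Bmp7* differed by 0.16 ± 0.19 and 0.03 ± 0.19, and its group means over the 4 embryonic groups lay within 0.19 on the log2 scale, the narrowest range of the 9 genes. Endothelial markers moved with genotype in these libraries, and their part in the results was not tested. The 7 markers summed to 16.4 to 22.3 CPM in the control intestine and 53.4 to 54.1 CPM in the *Eed* KO intestine, and to 18.7 to 19.6 and 29.4 to 51.7 CPM in the stomach, with 3 of 7 higher in the *Eed* KO intestine and 4 of 7 higher in the *Eed* KO stomach and none at 0. The 9 mesenchyme markers summed to 14750 to 18660 CPM and 13350 to 21540 CPM in the intestine, with no marker passing.

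**Figure D3:**
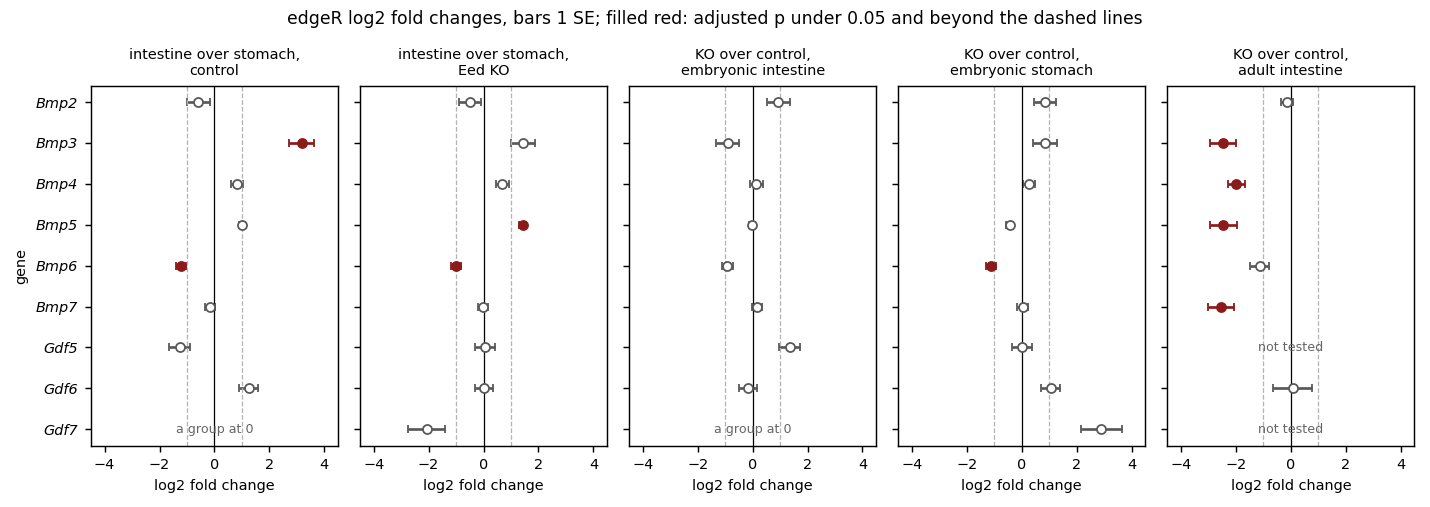
Log2 fold changes of the 9 BMP ligand genes in 5 comparisons by edgeR, with bars of 1 SE and genes on the y axis. Filled red points passed an adjusted p of 0.05 and lie beyond the dashed lines at a log2 change of 1 in size, and *Gdf7* is left out where a group had no count. *Bmp6* is on the left in every panel, and *Bmp3*, *Bmp4*, *Bmp5* and *Bmp7* lie between -1.98 and -2.55 in the adult.

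The fourth comparison set the *Eed* KO intestine against the *Eed* KO stomach, and 2 of the 9 genes passed, where 4.4% of genes tested did. *Bmp5* was higher in the intestine, at 80.2 and 77.4 CPM against 31.5 and 27.3 CPM. The organs were clearly separated, with a difference of 1.42 ± 0.12 (adjusted p = 0.00152). *Bmp6* was lower in the intestine, at 3.16 and 4.53 CPM against 7.43 and 8.09 CPM (-1.01 ± 0.19, adjusted p = 0.0227). Its call was lost without *Eed* KO intestine replicate 1, *Eed* KO stomach replicate 1 or *Eed* KO stomach replicate 2 (adjusted p = 0.0679 to 0.121), and the count was then 1. *Bmp3* was at 14.9 and 29.2 CPM against 5.90 and 10.4 CPM (1.43 ± 0.43, adjusted p = 0.105). *Gdf6* was at 47.1 and 42.4 CPM in the *Eed* KO intestine and 40.4 and 48.4 CPM in the *Eed* KO stomach, so the organs overlapped, at 0.01 ± 0.33. This comparison shares its *Eed* KO libraries with the comparisons within each organ.

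In the adult intestine the ligand genes were dominated by *Bmp4*. The adult libraries were made with another kit and counted and scaled on their own, so their levels are not set against the embryonic ones as a test. In adult controls, mean TPM ± SD (n = 2) was 747 ± 3.88 for *Bmp4*, 57.9 ± 17.4 for *Bmp5*, 22.2 ± 0.653 for *Bmp2*, 18.3 ± 4.00 for *Bmp7*, 16.4 ± 8.51 for *Bmp3*, 12.4 ± 3.16 for *Bmp6* and 3.26 ± 2.63 for *Gdf6*. *Bmp2*, *Bmp7* and *Bmp6* lay within the spread of *Bmp3*. *Bmp4* made up 83.0% and 87.3% of the summed TPM of the 9 genes in the adult controls and 82.6% and 76.7% in the adult *Eed* KO libraries. *Gdf5* had 1 and 2 counts in controls and 4 and 0 in *Eed* KO, and *Gdf7* had 0 and 1 and then 0 and 0, so both were too low to be tested.

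The fifth comparison asked how the adult genes differed with loss of *Eed*. *Bmp3*, *Bmp4*, *Bmp5* and *Bmp7* fell in *Eed* KO, so that 4 of the 7 genes tested passed, all lower, where 19.6% of the 15039 genes tested passed, 1856 higher and 1088 lower. *Bmp4* was at 635 and 658 CPM in controls and at 214 and 114 CPM in *Eed* KO. The *Eed* KO libraries were both far below, with a difference of -1.98 ± 0.31 (adjusted p = 0.00485). *Bmp5* was at 108 and 72.4 CPM in controls and 24.9 and 8.10 CPM in *Eed* KO (-2.46 ± 0.50, adjusted p = 0.0131). *Bmp7* was at 32.6 and 24.6 CPM and then 7.21 and 2.62 CPM (-2.55 ± 0.47, adjusted p = 0.00915). *Bmp3* was at 26.8 and 12.8 CPM and then 4.41 and 2.78 CPM (-2.47 ± 0.46, adjusted p = 0.00956). All 4 genes stayed lower in *Eed* KO when any single adult library was left out. The size of the fall moved with the library left out, from -1.60 to -2.52 for *Bmp4*, from -1.87 to -3.50 for *Bmp5*, from -1.99 to -3.46 for *Bmp7* and from -1.85 to -2.90 for *Bmp3*. Directions in the adult rest on the genotype labels, since the lower *Eed* level given above did not pass.

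The remaining adult genes did not pass. *Bmp6* was at 13.51 and 9.65 CPM in controls and at 5.91 and 4.63 CPM in *Eed* KO, with no overlap (-1.14 ± 0.36, adjusted p = 0.0615). *Bmp2* was at 30.9 and 30.5 CPM in controls and at 26.3 and 29.4 CPM in *Eed* KO, a difference of -0.14 ± 0.21. *Gdf6* was at 1.90 and 7.13 CPM in controls and at 2.80 and 6.64 CPM in *Eed* KO, where the libraries of each group spread more than the groups differed (0.07 ± 0.71).

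Markers of other cells moved with genotype in the adult libraries. All 8 macrophage and leukocyte markers in the files were higher in *Eed* KO, and their summed level went from 628 and 881 CPM in controls to 15420 and 17210 CPM. The 8 markers of B cells and antigen presentation went from 3281 and 4630 CPM to 122200 and 143700 CPM, with 5 higher and *Cd79a* lower. The 9 mesenchyme markers went from 11360 and 11880 CPM to 3474 and 4974 CPM, with *Pdgfra*, *Col1a1*, *Col1a2* and *Col3a1* lower, and the 6 pericyte markers from 11470 and 13340 CPM to 3191 and 4429 CPM, with 3 lower. The 6 subepithelial fibroblast and telocyte markers went from 1049 and 1299 CPM to 327 and 401 CPM, with *Pdgfra*, Foxl1 and Frzb lower. The 6 smooth muscle markers summed to 1817 and 2253 CPM in controls and 3143 and 3700 CPM in *Eed* KO, with Myh11, Actg2 and Cnn1 higher, and of 6 trophocyte and adventitial fibroblast markers Cd81 and Pi16 were higher. No marker of these lists was at 0 in either group, and their part in the fall of the ligand genes was not tested. The ligand genes themselves summed to 849 and 816 CPM in controls and 286 and 169 CPM in *Eed* KO. When libraries were scaled by the counts of the 9 mesenchyme markers, a setting chosen after seeing the data, the median of all genes moved up by 1.502 (log2). On that scale *Bmp5* (-1.09) and *Bmp7* (-1.16) still passed as lower, *Bmp3* (-1.03, adjusted p = 0.0860) and *Bmp4* (-0.55, adjusted p = 0.184) did not, and *Bmp2* passed as higher (1.38). Subtracting the shift of all genes largely undoes this scaling and returned values near those of the main fit. They lay between -2.05 and -2.66 for the 4 genes and at -0.12 for *Bmp2*, and are no check of the fall on the mesenchyme scale.

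**Figure D4:**
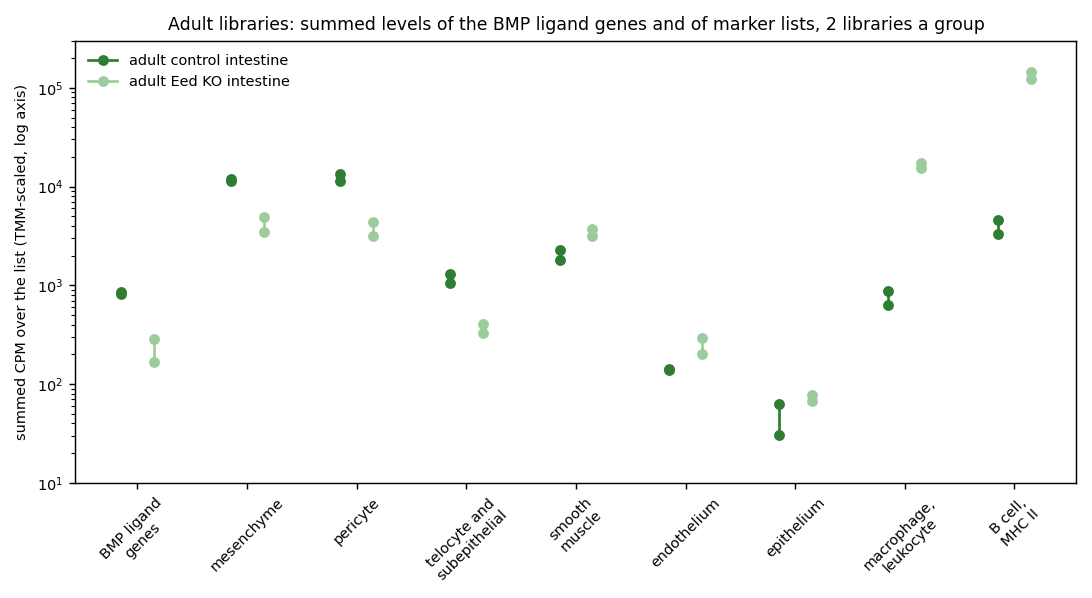
Summed CPM over the 9 BMP ligand genes and over 8 marker lists in the adult libraries, on a log axis, with points for the 2 libraries of each group joined by a line. The ligand genes fall from 849 and 816 to 286 and 169, alongside the mesenchyme list (11360 and 11880 to 3474 and 4974), while the macrophage and leukocyte list rises from 628 and 881 to 15420 and 17210.

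The adult and the embryonic responses of the intestine were compared in a single model. *Bmp4*, *Bmp5* and *Bmp7* had a more negative response in the adult, so that 3 of the 8 genes tested passed, where 10.4% of the 18170 genes tested did. The difference in log2 fold change was -2.12 ± 0.37 for *Bmp4* (adjusted p = 0.0108), -2.45 ± 0.60 for *Bmp5* (adjusted p = 0.0366) and -2.73 ± 0.59 for *Bmp7* (adjusted p = 0.0238). *Bmp3* was at -1.57 ± 0.62 (adjusted p = 0.147) and *Bmp2* at -1.08 ± 0.39 (adjusted p = 0.120). Stage, Cre line and library kit differ together here and cannot be told apart. *Eed* itself passed in this comparison, with a difference of 1.70 (adjusted p = 0.00741). It fell by -2.02 (log2) in the embryonic intestine and by -0.32 in the adult, where it did not pass. The part of this unequal *Eed* fall in the ligand differences was not tested. Without control intestine replicate 1 no member passed, and 1 member passed without control intestine replicate 2, *Eed* KO intestine replicate 2 or adult control intestine replicate 1.

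Other genes of the pathway were counted over lists of receptors, antagonists, response genes and processing enzymes. Between control organs, *Bmpr1b*, a type I receptor, was lower in the intestine (-4.08 on the log2 scale) and was the only one of 7 receptors to pass, and *Chrdl1*, a chordin-like antagonist, was also lower (-1.53), the only one of 14 antagonists tested to pass. Of 11 response genes, *Msx1*, a homeobox gene induced by BMP signals, differed by -2.22, and *Hand1* was higher in the intestine by 6.40. Of 5 co-receptors tested, *Eng* was higher by 1.53, and of 6 processing proteases *Pcsk5* differed by -1.66. Of the 7 endothelial markers, *Pecam1* (2.51), *Cdh5* (1.80) and *Emcn* (2.62) were also higher in the control intestine and *Esam* (-1.55) was lower. Their part in the *Eng* difference was not tested. Over all genes tested 5.07% passed, so that 1 of 14 antagonists lay near the background. None of the 4 signal transducers and none of the 3 other TGF-beta superfamily ligands tested passed.

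With loss of *Eed* in the embryo, the response genes *Msx1* and *Msx2* rose in both organs, by 2.05 and 4.74 in the intestine and by 1.12 and 2.66 in the stomach, and *Hand1* rose by 2.89 in the stomach. These were 2 of 11 response genes tested in the intestine and 3 of 11 in the stomach, with none lower, where 2.61% and 5.65% of all genes tested passed. The rest of the list did not pass in the stomach, from -0.31 for *Id1* to 0.67 for *Bambi*. There *Id2*, *Id3*, *Smad6* and *Smad7* differed by 0.06, 0.004, -0.03 and 0.15. The medians of the list were 0.18 and 0.28 where those of all genes were 0.01 and 0.00. No other pathway gene passed in the intestine. In the stomach *Chrdl1* differed by -1.26, *Fst*, which encodes follistatin, by -1.75, and the co-receptor *Rgmb* by -1.11, while the antagonist *Sostdc1* rose by 1.02. Under spike-in scaling the directions of genes that fell can turn, as for *Bmp6* above. Between *Eed* KO organs *Bmpr1b* was again lower in the intestine (-2.85), as were *Chrdl1* (-1.18), *Sostdc1* (-1.02), *Msx1* (-1.28) and *Pcsk5* (-1.46), and the antagonist *Nog* (1.64) and *Hand1* (3.69) were higher. The test of the organs' responses called 1 of 7 receptors, *Bmpr1b*, and no gene of the other pathway lists.

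In the adult, 3 of 6 processing proteases tested were lower in *Eed* KO, namely *Pcsk5* (-2.10), *Pcsk6* (-2.63) and *Bmp1* (-1.07), with none higher. Of 11 antagonists tested, *Fstl1* (-1.10), *Nbl1* (-1.09) and *Twsg1* (-1.56) were lower, and of 6 receptors *Acvr1* (-1.19) was lower. Of other TGF-beta superfamily ligands, *Gdf3* (4.48) and *Gdf15* (4.06) were higher, as was the response gene *Id2* (2.91), out of 5 ligands and 9 response genes tested. The part of the added macrophage and leukocyte RNA in these rises was not tested. Of all genes tested 19.6% passed, 1856 higher and 1088 lower of 15039. The list medians were -0.50 for proteases, -0.49 for antagonists, -0.39 for receptors and 0.58 for response genes, and -1.98 for the 7 ligand genes tested, where the median of all genes tested was 0.00.

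The genes whose embryonic pattern was most like that of a ligand gene were sought for the 3 members with the widest range of group means, *Bmp3*, *Gdf7* and *Bmp6*, as a description over 8 embryonic libraries that share depth and composition differences. For *Bmp3* they were *Thbs4* (Pearson's r of log2 CPM = 0.987), *Fam101b* (0.983) and *1300017J02Rik* (0.983). For *Gdf7*, whose counts are low, they were *Rhpn1* (0.992), *Tmem196* (0.983) and *Abcb9* (0.983). For *Bmp6* they were *Brinp1* (0.993), the BMP antagonist *Chrdl1* (0.992) and *Atp7a* (0.985). Exons of gene models on the opposite strand overlap those of *Bmp4* (*Gm15217*), *Bmp5* (*Gm26903*) and *Gdf5* (*Gm15557*), and the adult counts were made without strand, so reads from the partners cannot be told apart there.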

How the data were processed

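Per the labels and the study's methods, GFP+ cells were sorted and RNA libraries were made with spike-in RNA (a directional kit for embryonic samples, a low-input kit for adult ones). The authors trimmed reads with Trimmomatic 0.32, aligned them to mm10 with STAR 2.5.1b and deposited raw counts per gene name from featureCounts on GENCODE models; the adult file headers give featureCounts 1.5.0, read pairs and no strand, and the strand setting of the embryonic counts is not given in the sources used here. ATAC-seq reads were aligned with BWA, replicates were pooled, and the authors called broad peaks with MACS2 2.1.2, whose deposited fold enrichment (a ratio over background) and -log10 q were used as given. Kit choice, pooling and scaling can each change the values.

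Counts were tested with edgeR 4.0.16 (R 4.3.3; TMM scaling, filterByExpr, quasi-likelihood F-test, Benjamini-Hochberg over all genes tested), with one fit over 8 embryonic libraries (16218 genes, all 9 members), one over 4 adult libraries (15039 genes, 7 members) and one over the intestinal libraries of both stages (18170 genes, 8 members). Genes passed at an adjusted p under 0.05 (0.2 for the organ dependence) and a log2 change above 1 in size. The 99 spike-in transcripts were kept out of library sizes. TPM used the summed exon lengths of the adult files, and transcription starts came from their exons. Alternatives were DESeq2 1.42.0, without and with 1 RUVg factor, no filter on low counts, DESeq2 size factors, spike-in scaling, fits on the compared groups only, the replicate block, each library left out, and other peak windows and q limits. The fits were tested on simulated counts. Named genes were the 9 members, *Eed*, every gene of the pathway lists that passed in a described comparison, and the 3 genes most correlated with each of the 3 most variable members. The members and lists were chosen with earlier results of these data known. The exact counting interval given for the *Gdf7* ratio in the stomach covers counting error only.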

Additional observations from a re-analysis of the deposited data

Results flagged for a closer look

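The response to loss of *Eed* differed between the adult and the embryonic intestine for 3 BMP ligand genes by the test of the difference itself in edgeR. The adult minus embryonic difference in log2 fold change was -2.12 for *Bmp4*, with an adult response of -1.98 and an embryonic one of 0.13. For *Bmp5* it was -2.45, with -2.46 in the adult and -0.02 in the embryo, and for *Bmp7* it was -2.73, with -2.55 in the adult and 0.16 in the embryo. Stage, Cre line and library kit differ together and cannot be told apart, and the adult *Eed* KO libraries held more macrophage and antigen presentation RNA, whose part in these differences was not tested. *Eed* RNA fell by -2.02 (log2) in the embryonic intestine and by -0.32 in the adult, where it did not pass. That difference of 1.70 passed the same test (adjusted p = 0.00741), and its part was not tested either. Without control intestine replicate 1 none of the 3 differences passed. Groups of 2 libraries are under the size at which a single outlying sample was looked for.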

How the results depend on the processing

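With 2 libraries in each group, single libraries decided several calls, and depth limits *Gdf5* and *Gdf7* most. The adult fall of *Bmp3*, *Bmp4*, *Bmp5* and *Bmp7* kept its 4 calls with DESeq2, without the low-count filter, with DESeq2 size factors, with spike-in scaling, with the replicate block and without any single library, and not with mesenchyme marker scaling. The 9 promoter peaks of each list were kept under every peak setting. Where a cause is not given, it was not tested.

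The number of members that passed was 2 between control organs, 0 in the embryonic intestine, 1 in the embryonic stomach, 2 between *Eed* KO organs, 0 for the organ dependence, 4 in the adult and 3 for adult against embryonic. Without the low-count filter the first 3 became 4, 1 and 3, and the organ dependence 2. With DESeq2 they became 5, 1 and 2, and the organ dependence 1. With DESeq2 and 1 RUVg factor the embryonic intestine had 2 and the organ dependence 1. With spike-in scaling the first 4 became 1, 7, 8 and 0, and adult against embryonic 5. Fitting only the compared groups gave 1 between *Eed* KO organs. Leaving out 1 library gave 1 to 4 between control organs, 0 to 1 in the embryonic intestine, 0 to 1 in the embryonic stomach, 1 to 2 between *Eed* KO organs, 0 to 1 for the organ dependence and 0 to 3 for adult against embryonic; where this leaves 1 library in a group, that library was assumed to vary like the others.

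The labels do not say what a shared replicate number marks. Same-numbered libraries deviated together with Pearson's r of 0.265 between control organs, 0.628 between *Eed* KO organs, 0.0993 and 0.0470 between genotypes of the intestine and the stomach, and -0.0604 in the adult. With 2 pairs a comparison, and no source that ties a number to an animal, the libraries were treated as sharing only a number. With the replicate block, 4 members passed between control organs, 1 in the embryonic intestine, 2 in the embryonic stomach, 4 between *Eed* KO organs and 2 for the organ dependence, while *Gdf5* in the embryonic stomach turned to -0.0039. The count over all genes moved with the block from 714 to 1131 between *Eed* KO organs and from 75 to 350 for the organ dependence. Between control organs, 273 higher and 549 lower genes became 372 and 751 with the block. In the embryonic intestine 386 and 37 became 575 and 56, and in the embryonic stomach 785 and 131 became 1024 and 182.

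Some log2 values changed sign. With spike-in scaling, *Bmp7* between control organs turned to 0.14. In the embryonic intestine *Bmp3* turned to 1.14, *Bmp5* to 1.81, *Bmp6* to 1.03 and *Gdf6* to 1.65, and in the stomach *Bmp5* to 1.90 and *Bmp6* to 1.29, all below the shift of the median. Between *Eed* KO organs *Gdf5* turned to -0.33 and *Gdf6* to -0.32, for the organ dependence *Bmp2* to -0.35, *Bmp5* to -0.086, *Bmp6* to -0.27 and *Bmp7* to -0.33, and *Gdf6* to -0.58 in the adult and -2.23 for adult against embryonic. With 1 RUVg factor, *Bmp2*, *Bmp5* and *Bmp7* turned to -0.017, 0.055 and -0.32 in the intestine, *Bmp2*, *Bmp3* and *Bmp7* to -0.35, -0.69 and -0.57 in the stomach, and *Gdf5* and *Gdf6* to -0.030 and -0.0057 between *Eed* KO organs. With mesenchyme marker scaling, a setting chosen after seeing the data, adult *Bmp2* turned to 1.38 and *Bmp6* to 0.33. Leaving out 1 library gave ranges across 0 for *Bmp2* between control organs (-1.03 to 0.069), for *Bmp5* (-0.12 to 0.079) and *Bmp7* (-0.16 to 0.43) in the intestine, and for *Bmp4* (-0.070 to 0.72), *Bmp7* (-0.064 to 0.12) and *Gdf5* (-0.085 to 0.13) in the stomach. Between *Eed* KO organs these were *Bmp7* (-0.35 to 0.24), *Gdf5* (-0.42 to 0.42) and *Gdf6* (-0.11 to 0.15), and for the organ dependence *Bmp2* (-0.55 to 0.54), *Bmp4* (-0.59 to 0.20), *Bmp6* (-0.072 to 0.45) and *Bmp7* (-0.20 to 0.40). In the adult it was *Gdf6* (-0.69 to 1.32), and for adult against embryonic *Bmp6* (-0.46 to 0.047), *Gdf5* (-6.12 to 0.53) and *Gdf6* (-0.50 to 1.51).

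Counts over all genes that moved by more than 1.5 times are given beside the main ones. In the embryonic intestine 423 became 800 without the filter, 685 with DESeq2 and 244 with only the compared groups. Between *Eed* KO organs 714 became 397 with only the compared groups. For the organ dependence 75 became 237, 207 and 243 without the filter, with DESeq2 and with RUVg, and for adult against embryonic 1892 became 3070 without the filter. The split of higher and lower calls under spike-in scaling was 70 and 85 against 273 and 549 between control organs, 13664 and 24 against 386 and 37 in the intestine, 15419 and 19 against 785 and 131 in the stomach, 20 and 95 against 237 and 477 between *Eed* KO organs, 0 and 20 against 31 and 44 for the organ dependence, 1154 and 1321 against 1856 and 1088 in the adult, and 50 and 6673 against 1050 and 842 for adult against embryonic. With RUVg it was 313 and 181 in the intestine, 364 and 348 for the stomach and 139 and 104 for the organ dependence, and 9637 and 132 with mesenchyme marker scaling in the adult. Leaving out 1 library gave 370 to 500 between control organs, 74 to 363 in the intestine, 344 to 650 in the stomach, 304 to 528 between *Eed* KO organs, 27 to 97 for the organ dependence and 582 to 2381 for adult against embryonic.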
